A study of Mus musculus with 4 samples.

Results

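The comparison described here was that of 1 Drp1LiKO liver with 1 Cont liver, both read as fasted, in mice fed a high-fat diet (HFD). Its members were all 39392 gene probes of the array that kept at least 1 usable spot, and 2 of the 4 arrays of the series carried it. The value of a probe was the log2 of its background-subtracted signal minus the log2 of the 75th percentile of its array, and the difference was Drp1LiKO minus Cont. Differences were read first on the 19468 probes that the scanner software called well above background on both arrays.

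The RNA came from livers of male C57BL/6J mice and was read on Agilent one-color arrays, with 1 array for Cont, Drp1LiKO, refed Cont and refed Drp1LiKO. Drp1LiKO mice carried Alb-Cre Tg/+ and Drp1 flox/flox, and Cont mice were Drp1 flox/flox littermates, so that both carried the floxed alleles and differed in the Cre transgene, which the albumin promoter drives in hepatocytes. The labels name the Cont livers wild type, and give HFD for 24 weeks for all 4 arrays. They give neither the age at sampling nor the number of mice behind an array. The labels of the 2 arrays compared here name no feeding state and point to the same raw data in an earlier submission. The study's text places them after fasting, while the design text of the series speaks of mice fasted for 17 h and refed for 4 h, so "fasted" rests on the study's text.

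Drp1, encoded by Dnm1l, is the dynamin-like GTPase that wraps around mitochondria and divides them. Cells sense disturbed mitochondria partly through the integrated stress response, in which phosphorylation of eIF2alpha slows protein synthesis while the transcription factor ATF4, with CHOP and ATF3, turns on genes of amino acid supply, redox balance and growth arrest. Mitochondrial DNA or RNA that leaves the organelle can also reach the sensors that switch on interferon-stimulated genes.

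With 1 array per group there were no replicates, so a difference within the pair is a value with no test, and precision is limited by the number of arrays. The standard error (SE) beside a difference was taken from the error that the scanner software gives each spot. It covers measurement error only and had a median of 0.205 on the log2 scale over genes. The 75th percentile of the signal was 461 on the Cont and 722 on the Drp1LiKO array, and 51.4% and 58.2% of gene spots were well above background. The 7 E1A spike-in probes well above background on all 4 arrays were not brighter on the Drp1LiKO array, where their log2 signal before scaling was between 0.09 and 0.28 lower. Scaled to these spike-ins, an alternative chosen after seeing the data, the median difference of all genes was 0.66, against -0.12 with the 75th percentile and -0.02 with quantile normalization. Why genes and spike-ins differed in this way was not tested, and list medians are read against the median of all genes. Signals below are given as relative signals, the intensity divided by the 75th percentile of its own array.

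Dnm1l had 1 probe, at chr16:16312331-16312390 of the mm9 build, with a relative signal of 2.02 in Cont and 1.75 in Drp1LiKO. The log2 difference was -0.21 (SE 0.20), within 2 measurement SEs of 0. The sources used here do not name the deleted exons, so this probe does not check the genotype.

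The probes stood for 30147 genes or transcripts, and 15380 of these were well above background on both arrays. In the Drp1LiKO liver 466 genes (3.03%) exceeded the Cont liver by 2-fold or more, and 564 (3.67%) fell short of it by 2-fold or more, 6.7% together. Only 70 and 76 genes passed 4-fold, and 14 and 24 passed 8-fold. The middle 50% of all genes lay between -0.40 and 0.18 on the log2 scale. Among the 3845 genes with the brightest signals 42 were higher and 112 lower past 2-fold, with a median difference of -0.26. Among the 3845 dimmest, 207 were higher and 217 lower, with a median of -0.09. A further 2173 genes were well above background only on the Drp1LiKO array and 372 only on the Cont array. These were read as bounds against the lowest signal well above background on the dim array (relative signal 0.0643 in Cont, 0.0368 in Drp1LiKO). All 372 genes had such a bound, but only 1048 of the 2173 did, and the rest were not counted. By these bounds 307 genes passed 2-fold upward and 336 downward. That gave 773 higher (4.6% of the 16800 genes measured or bounded) and 900 lower (5.36%).

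**Figure D1:**
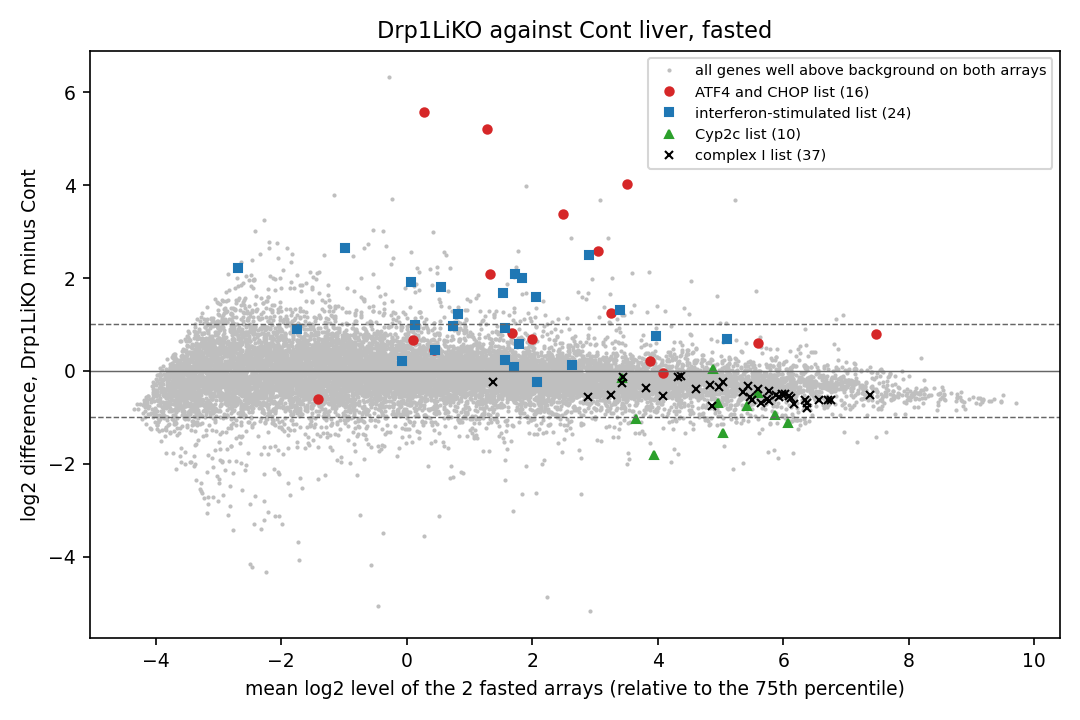
Log2 difference (Drp1LiKO minus Cont, vertical axis) against the mean log2 level of the 2 fasted arrays relative to the 75th percentile (horizontal axis) for the 15380 genes well above background on both arrays (grey), with dashed lines at 2-fold. The ATF4 and CHOP list (red circles) and the interferon-stimulated list (blue squares) lie mostly above the cloud, while the complex I (crosses) and Cyp2c (green triangles) lists lie along or below its lower side at high levels.

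The upper end of the differences held many genes of the stress response run by ATF4 and CHOP. Of 17 listed regulators and effectors, 16 were measured on both arrays, 7 were at least 2-fold higher and none was 2-fold lower, beside 3.03% and 3.67% of all genes. Their median difference was 0.80, and 15 of the 16 lay above the median of all genes. Atf3, a stress-induced repressor of the ATF family, had a relative signal of 0.175 in Cont and 8.36 in Drp1LiKO, a 47.8-fold difference (log2 5.58, SE 0.24). Nupr1, a small chromatin-associated stress protein, had 0.399 in Cont and 14.8 in Drp1LiKO, a 37-fold difference. Both lay below the 75th percentile of the array in Cont and well above it in Drp1LiKO. Trib3, a pseudokinase that restrains AKT and ATF4, went from 2.84 in Cont to 46.1 in Drp1LiKO (16.2-fold). Ddit4, an inhibitor of mTORC1, had 1.75 in Cont and 18.3 in Drp1LiKO (10.5-fold), and Ddit3, which encodes CHOP, had 1.22 in Cont and 5.2 in Drp1LiKO (4.26-fold). The 2 secreted members also passed 2-fold. Fgf21, the fasting hormone, had 3.37 in Cont and 20.2 in Drp1LiKO (5.98-fold), and Gdf15, a stress hormone that reduces food intake, had 6.19 in Cont and 14.6 in Drp1LiKO (2.36-fold). Atf4 itself stayed under 2-fold at 39.2 in Cont and 59.9 in Drp1LiKO, with its 2 probes at log2 differences of 0.61 and 0.95. Atf5, the brightest member, had 136 in Cont and 234 in Drp1LiKO (1.73-fold), and the phosphatase subunit Ppp1r15a and the glutathione-degrading enzyme Chac1 had log2 differences of 0.82 and 0.68.

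Many ATF4 targets carry a C/EBP-ATF response element near their start site, and the promoters of the listed genes are shown for this reason. The motif TGATGNAAN was searched on both strands in the 250 bases before each start in the RefSeq annotation of GRCm38.p6. It was present in 2.56% of the 9956 measured genes with a promoter entry, in 6.23% of the 305 higher genes, in 3.67% of the 327 lower genes and in 5 of 16 genes of the ATF4 and CHOP list, and in 3.44% of all 32851 promoters of that length in the table. These shares are descriptions without a test, a match is not a binding site, and the absence of a match says only that these letters are not in the window. The 250 bases before the start of 5 genes with a match follow, each 5′ to 3′ on the strand of the gene, with the match in capitals. The positions are chr6:7693210-7693459 (minus strand) for Asns, chr1:191183334-191183583 (minus strand) for Atf3, chr7:126625471-126625720 (minus strand) for Nupr1, chr2:119350992-119351241 (plus strand) for Chac1 and chr7:45615491-45615740 (minus strand) for Fgf21.
Asns: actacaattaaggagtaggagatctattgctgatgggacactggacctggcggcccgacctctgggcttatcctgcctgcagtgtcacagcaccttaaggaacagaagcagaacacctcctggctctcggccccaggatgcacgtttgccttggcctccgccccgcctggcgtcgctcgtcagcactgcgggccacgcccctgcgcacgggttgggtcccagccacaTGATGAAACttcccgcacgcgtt
Atf3: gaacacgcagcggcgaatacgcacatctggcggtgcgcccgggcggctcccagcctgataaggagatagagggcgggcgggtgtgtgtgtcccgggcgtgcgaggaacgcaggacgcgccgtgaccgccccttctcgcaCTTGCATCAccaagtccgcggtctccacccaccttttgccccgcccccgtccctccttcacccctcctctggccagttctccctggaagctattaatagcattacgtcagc
Nupr1: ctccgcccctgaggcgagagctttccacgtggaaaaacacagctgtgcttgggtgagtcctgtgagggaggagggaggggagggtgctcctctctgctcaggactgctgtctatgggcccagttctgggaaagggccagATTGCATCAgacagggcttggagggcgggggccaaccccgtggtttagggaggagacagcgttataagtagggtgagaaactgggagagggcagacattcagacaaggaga
Chac1: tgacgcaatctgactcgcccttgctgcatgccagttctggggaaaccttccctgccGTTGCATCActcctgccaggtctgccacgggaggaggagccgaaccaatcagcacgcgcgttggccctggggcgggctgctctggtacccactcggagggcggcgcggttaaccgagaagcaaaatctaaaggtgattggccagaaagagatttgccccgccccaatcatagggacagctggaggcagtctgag
Fgf21: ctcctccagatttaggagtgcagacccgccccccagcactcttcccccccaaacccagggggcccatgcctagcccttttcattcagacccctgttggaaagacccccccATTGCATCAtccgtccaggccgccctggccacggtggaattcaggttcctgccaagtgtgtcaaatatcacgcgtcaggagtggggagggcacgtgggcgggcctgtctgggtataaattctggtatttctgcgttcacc
The match lay 23 bases before the start in Asns, 111 bases for Atf3, 111 for Nupr1, 194 for Chac1 and 140 for Fgf21. No match was found in the windows of Trib3, Ddit3, Ddit4, Gdf15, Sesn2 and Psat1.

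Some genes that make and import amino acids were higher, among them enzymes of serine and asparagine synthesis. Of 16 listed enzymes, 10 were measured on both arrays, 3 were at least 2-fold higher and none was 2-fold lower (median 0.51), and 5 more were well above background only in Drp1LiKO. Asns, asparagine synthetase, had 0.122 in Cont and 1.67 in Drp1LiKO (13.7-fold, SE of the log2 difference 0.26). Psat1, which makes phosphoserine, was not well above background in Cont and had 1.3 in Drp1LiKO, at least 20.3-fold higher. Phgdh, the first enzyme of serine synthesis, was at least 3.41-fold higher on the same reading with 0.219 in Drp1LiKO, and Mthfd2, the mitochondrial folate dehydrogenase, at least 2.2-fold with 0.141. Mthfd1l, the mitochondrial formate producer, had 0.0991 in Cont and 0.341 in Drp1LiKO (3.44-fold), and Gpt2, mitochondrial alanine aminotransferase, had 9.12 in Cont and 22.1 in Drp1LiKO (2.42-fold). In all 4 of the 10 measured were below 0, and Shmt2, the mitochondrial serine hydroxymethyltransferase, had a log2 difference of -0.80, Shmt1 -0.71 and Cbs -0.42. Of 14 measured amino acid transporters 2 were at least 2-fold higher, the cationic amino acid carrier Slc7a1 at 0.129 in Cont and 0.429 in Drp1LiKO (3.33-fold) and the heavy chain Slc3a2 at 5.6 in Cont and 12.6 in Drp1LiKO (2.25-fold). The single lower transporter, Slc1a5, gave opposite values with its 2 probes, a log2 difference of -3.40 for the probe used and 1.97 for the other, which was dim in Cont, so its direction is not settled. Among 19 measured cytosolic aminoacyl-tRNA synthetases only Rars passed 2-fold (2.68-fold higher), but 14 were above the median of all genes and their median was 0.32. The 15 measured mitochondrial synthetases had a median of -0.14, close to that of all genes, and none passed 2-fold.

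The transcripts upstream of ATF4 differed little. Of 6 listed kinases and relay factors none passed 2-fold, with log2 differences of 0.66 for the ER kinase Eif2ak3, 0.48 for the mitochondrial protease Oma1 and -0.32 for its substrate Dele1. Chaperones of the endoplasmic reticulum (ER) lay on the other side. None of 22 was at least 2-fold higher, 1 was lower, and 19 were below 0 with a median of -0.50. Hspa5, the ER Hsp70 BiP, had 77.8 in Cont and 60 in Drp1LiKO (log2 -0.37), and Calr, calreticulin, had 26.2 in Cont and 11.1 in Drp1LiKO (2.36-fold lower). With the spike-in scaling the median of this list was 0.28, above 0. That scaling moves every gene alike, so the list's place below the median of all genes (0.66) could not change. The 12 mitochondrial chaperones and proteases had a median of 0.02 with none past 2-fold, and the largest difference was that of the unfoldase Clpx (0.93). The 10 measured cytosolic heat shock genes lay between -0.41 and 0.30.

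**Figure D2:**
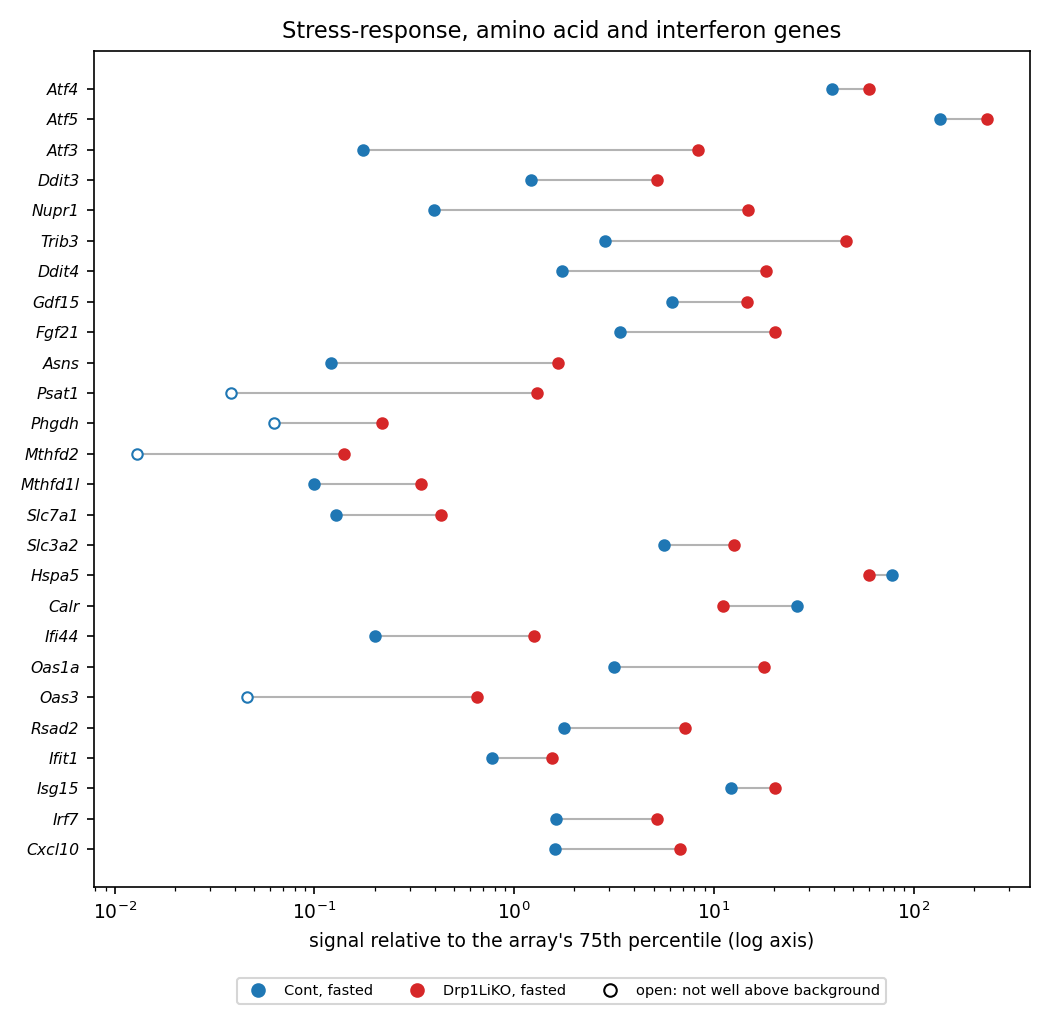
Relative signal (horizontal log axis, intensity divided by the 75th percentile of the array) of 26 genes on the Cont (blue) and Drp1LiKO (red) fasted arrays, with open circles where the probe was not well above background. Drp1LiKO lies to the right of Cont for every gene drawn but the ER chaperones Hspa5 and Calr.

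Interferon-stimulated genes formed the second group. Of 24 measured on both arrays, 11 were at least 2-fold higher, none was 2-fold lower and 23 were above 0, with a median of 0.98 beside -0.12 for all genes. Ifi44 had 0.201 in Cont and 1.26 in Drp1LiKO (6.28-fold), and the RNA-sensing synthetase Oas1a had 3.15 in Cont and 17.9 in Drp1LiKO (5.68-fold), with a second probe at a log2 difference of 2.64. Oas3, of the same family, was not well above background in Cont and was at least 10.1-fold higher. Rsad2, the antiviral enzyme viperin, had 1.78 in Cont and 7.18 in Drp1LiKO (4.03-fold), the chemokine Cxcl10 had 1.6 in Cont and 6.77 in Drp1LiKO (4.23-fold), and Irf7, a transcription factor that amplifies the response, had 1.62 in Cont and 5.18 in Drp1LiKO (3.2-fold). Ifit1, an inhibitor of viral translation, fell just short of 2-fold at 0.772 in Cont and 1.54 in Drp1LiKO, and the ubiquitin-like Isg15 had 12.2 in Cont and 20.3 in Drp1LiKO (1.67-fold). The signal transducers that carry the interferon signal were not raised to that degree, with -0.23 for Stat2 and 0.13 for Irf9. In the refed pair 18 of the 23 members measured there were at least 2-fold higher and the median was 2.33, but whether the pairs differ was not tested. None of 13 antigen presentation genes passed 2-fold (median 0.09).

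The interferon-stimulated response element, the letters GAAANN followed directly by GAAA and searched in the same windows on both strands, was present in 11 of 20 interferon-list genes with a promoter entry, in 3.26% of the 9956 measured genes, in 7.21% of the genes past 2-fold upward and 2.75% of those past 2-fold downward, and in 2.98% of all promoters in the table. The promoters of 3 of these genes are shown, at chr4:156200819-156201068 (minus strand) for Isg15, chr19:34640639-34640888 (plus strand) for Ifit1 and chr12:26456453-26456702 (minus strand) for Rsad2.
Isg15: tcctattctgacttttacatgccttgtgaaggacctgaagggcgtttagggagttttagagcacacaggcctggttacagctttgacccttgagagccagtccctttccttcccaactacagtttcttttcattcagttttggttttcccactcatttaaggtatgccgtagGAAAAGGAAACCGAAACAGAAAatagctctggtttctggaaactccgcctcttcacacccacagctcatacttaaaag
Ifit1: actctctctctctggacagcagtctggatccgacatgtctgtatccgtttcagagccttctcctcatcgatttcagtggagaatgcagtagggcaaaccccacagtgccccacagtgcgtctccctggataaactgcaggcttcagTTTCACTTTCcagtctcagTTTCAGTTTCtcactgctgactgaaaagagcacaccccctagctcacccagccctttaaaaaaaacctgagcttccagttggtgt
Rsad2: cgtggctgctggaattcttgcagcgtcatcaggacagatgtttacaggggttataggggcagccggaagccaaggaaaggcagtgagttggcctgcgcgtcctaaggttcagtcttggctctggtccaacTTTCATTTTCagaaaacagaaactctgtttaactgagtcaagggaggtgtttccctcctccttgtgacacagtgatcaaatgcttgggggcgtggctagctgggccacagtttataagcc
The match nearest the start lay 66 bases before it in Isg15, where 3 matches overlap, 85 bases in Ifit1, which has 2 matches, and 120 bases in Rsad2. No match was found in the window of Irf7, which passed 2-fold all the same. Other motifs were searched in the same windows, also without a test. The shares of higher, lower and all measured genes were 8.2%, 9.17% and 5.94% for the AP-1 site and 3.93%, 4.28% and 2.77% for the D-box. They were 17.05%, 14.37% and 13.88% for the antioxidant response element and 0%, 0.31% and 0.18% for the ER stress response element.

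Transcripts of activated macrophages, chemokines and matrix were higher in part. Among 13 measured macrophage markers 3 passed 2-fold, the lipid-sensing receptor Trem2 at 0.369 in Cont and 1.99 in Drp1LiKO (5.38-fold), the scavenger receptor Marco at 5.33 in Cont and 16.7 in Drp1LiKO (3.14-fold) and the integrin Itgax (2.23-fold), while the Kupffer cell genes Clec4f and Timd4 had log2 differences of -0.16 and -0.42. Gpnmb, a lysosomal glycoprotein of lipid-loaded macrophages, was 5.38-fold higher. Of 17 measured chemokine, cytokine and inflammasome genes 5 were at least 2-fold higher, led by Ccl5 at 1.63 in Cont and 6.62 in Drp1LiKO (4.06-fold), with Ccl2 at 0.371 in Cont and 1.05 in Drp1LiKO (2.84-fold), and 1 was lower, the neutrophil attractant Cxcl1 at 1.33 in Cont and 0.583 in Drp1LiKO (2.28-fold). Of 7 measured neutrophil markers 3 were at least 2-fold lower (S100a8, S100a9 and Retnlg) and the median was -0.70. In the matrix list 6 of 14 measured genes were higher and none was lower (median 0.79), while in the refed pair none was higher and 1 was lower (median 0.02). The summed relative signal of the list was 99.3 in Cont and 69.1 in Drp1LiKO, most of it from the plasma protein Fn1 (log2 -0.77). Col1a1, the main fibrillar collagen chain, had 0.212 in Cont and 0.677 in Drp1LiKO (3.19-fold), Col3a1 had 0.475 in Cont and 1.15 in Drp1LiKO (2.42-fold), and Ccn2, a matrix-associated growth regulator, had 0.64 in Cont and 1.67 in Drp1LiKO (2.6-fold). Markers of stellate cells and fibroblasts, which make these collagens, had a median of 0.80 with 2 of 10 past 2-fold and a summed relative signal of 49.1 in Cont and 71.2 in Drp1LiKO. In whole liver, more cells of a type and more RNA per cell cannot be told apart.

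Genes of growth arrest, early response, cell division and injury were also higher in part. Of 15 measured p53 targets 5 passed 2-fold upward and none downward (median 0.50). Cdkn1a, the cell cycle inhibitor p21, had 0.474 in Cont and 3.78 in Drp1LiKO (7.98-fold), Phlda3, an AKT repressor, 3.42-fold more signal, and Trp53inp1, a stress-induced regulator of p53, 3.27-fold more. Of 14 measured immediate early genes 4 passed 2-fold (median 0.76), namely Egr1 (5.85-fold), Klf6 (3.65-fold), Btg2 (3.44-fold) and Myc (3.09-fold). Cell cycle genes split, with 5 of 18 higher and 1 lower. Ccnd1, cyclin D1, had 3.92 in Cont and 15.5 in Drp1LiKO (3.95-fold) and the helicase subunit Mcm6 was 2.18-fold higher, whereas Tk1, thymidine kinase, was 2.64-fold lower and Cdk1, with 0.068 in Cont and 0.162 in Drp1LiKO, was near the lowest measurable signal. Of 10 measured fetal and ductular genes 5 were higher and none lower (median 1.09), and 2 more were well above background only in Drp1LiKO and 1 only in Cont. Ly6d, a surface marker seen on stressed or progenitor-like hepatocytes, had 2.35 in Cont and 30.3 in Drp1LiKO (12.9-fold). Afp, alpha-fetoprotein, had 0.0944 in Cont and 0.367 in Drp1LiKO (3.88-fold). Sox9, a duct transcription factor, had 0.0933 in Cont and 0.221 in Drp1LiKO (2.37-fold). It was the only 1 of 4 measured cholangiocyte markers past 2-fold. Another 2 of these markers were well above background only in Cont, 1 of them at least 2-fold lower, and 1 only in Drp1LiKO. In the cytoskeleton and injury list 9 of 20 were higher and none lower (median 0.71), among them the tubulin Tubb2a (3.84-fold), the lectin Lgals3 (3.18-fold) and Tnfrsf12a, the receptor for TWEAK (3.15-fold). Of 12 measured cell death genes 2 were higher, the death receptor Tnfrsf10b (2.84-fold) and the necroptosis effector Mlkl (2.48-fold).

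**Figure D3:**
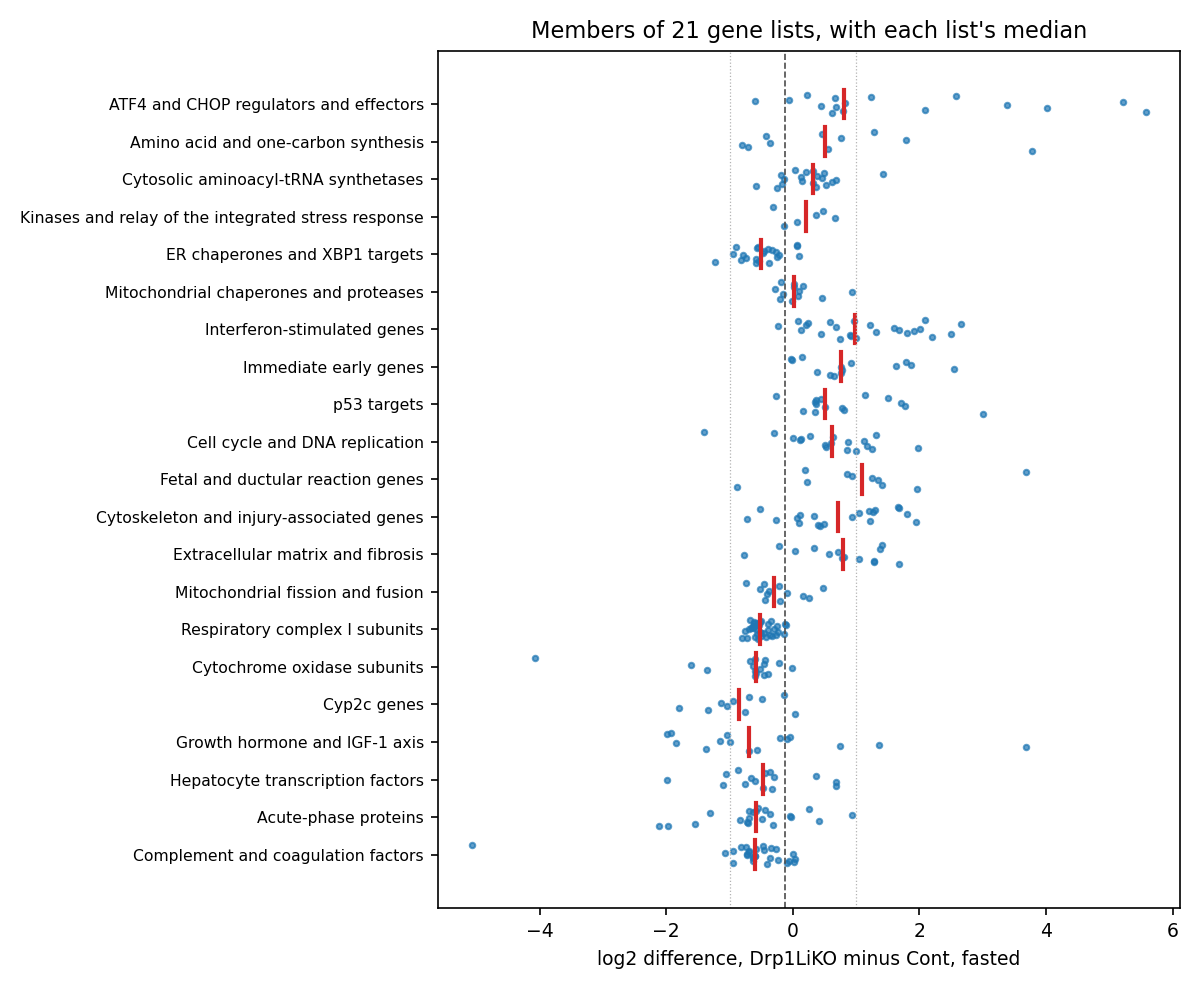
Log2 difference (horizontal axis) of each measured member (blue points) of 21 gene lists, with the list median (red bar), the median of all genes (dashed line) and 2-fold (dotted lines). The medians of the stress, interferon, injury and matrix lists lie to the right of the dashed line, and those of the ER chaperone, respiratory, Cyp2c and secreted protein lists to its left.

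Among glutathione S-transferases, NRF2 targets and glucuronosyltransferases a few members had large differences while most stayed within 2-fold. Gsta1, an alpha-class glutathione S-transferase, had 0.94 in Cont and 14.8 in Drp1LiKO (15.7-fold), its neighbour Gsta2 had 4.8 in Cont and 19.4 in Drp1LiKO (4.03-fold), and the related locus Gm10639 was 7.29-fold higher. These transcripts are near-identical in parts, so their probes may share signal. In the same family Gsta3 had a log2 difference of -0.74 and the theta-class Gstt3 was 3.69-fold lower, and in all 4 of 21 measured members were higher and 2 lower. Cbr3, a carbonyl reductase regulated by NRF2, had 0.315 in Cont and 2.03 in Drp1LiKO (6.43-fold), but only 2 of 24 NRF2 targets passed 2-fold and Nqo1, the classical target, did not (0.254 in Cont and 0.489 in Drp1LiKO, log2 0.95). Ugt1a10 had 0.235 in Cont and 3.04 in Drp1LiKO (12.9-fold), while the other 12 measured glucuronosyltransferases stayed within 2-fold. Cyp26a1, which degrades retinoic acid, was 6.87-fold higher at low signals (0.0832 in Cont and 0.571 in Drp1LiKO).

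Many transcripts of mature hepatocyte function were lower. Of 10 measured Cyp2c genes, which encode drug and arachidonic acid hydroxylases, 4 were at least 2-fold lower and none higher. Their median of -0.85 was the lowest of the 55 gene lists that are not cell type markers. In the same list 1 more gene, well above background only in Drp1LiKO, was at least 2-fold higher as a bound. Cyp2c38 had 28.6 in Cont and 8.19 in Drp1LiKO (3.49-fold) and Cyp2c37 had 52.6 in Cont and 20.8 in Drp1LiKO (2.53-fold), and this list kept a median below 0 under the spike-in scaling as well (-0.08). Cyp2b10, the reference target of the receptor CAR, had 6.51 in Cont and 2.55 in Drp1LiKO (2.55-fold). Hsd3b5, a male-specific steroid dehydrogenase, had 25.4 in Cont and 0.87 in Drp1LiKO, a 29.2-fold difference and one of the largest on the arrays. Of 15 measured male-biased genes, Hsd3b5 among them, 2 were at least 2-fold lower and 2 higher (median -0.63). In that list 1 more gene, well above background only in Drp1LiKO, was at least 2-fold higher as a bound. Female-biased genes were lower in part as well. Of 11 measured, 3 were at least 2-fold lower and 1 higher (median -0.31), and 1 more was at least 2-fold lower as a bound. In the growth hormone and IGF-1 axis 6 of 15 genes were lower and 2 higher. Socs2, a feedback inhibitor induced by STAT5, had 1.7 in Cont and 0.472 in Drp1LiKO (3.59-fold lower), Prlr, the prolactin receptor, 5.79 in Cont and 1.53 in Drp1LiKO (3.78-fold) and Igfals, the acid-labile subunit that carries IGF-1 in blood, 6.78 in Cont and 2.62 in Drp1LiKO (2.59-fold). Igf1 itself had a log2 difference of -0.57 and the receptor Ghr -0.70. The binding protein Igfbp1 went the opposite way, from 10.5 in Cont to 135 in Drp1LiKO (12.8-fold), with Igfbp3 2.56-fold higher. Of 15 hepatocyte transcription factors 3 were lower and none higher, Onecut1 at 22.7 in Cont and 5.69 in Drp1LiKO (3.99-fold), Foxa1 (2.14-fold) and Ppara (2.09-fold), while Hnf4a had 80.6 in Cont and 64.3 in Drp1LiKO (log2 -0.32). Hnf4aos, the antisense transcript at the Hnf4a locus, was 11.8-fold lower.

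Secreted proteins of the hepatocyte lay together slightly below the median of all genes. The 28 complement and coagulation factors had a median of -0.60 and 2 passed 2-fold downward, 1 of them Cfd, described further down among adipose genes. The 21 measured acute-phase genes had a median of -0.58 with 4 lower and none higher. Saa1, serum amyloid A, had 76.6 in Cont and 17.7 in Drp1LiKO (4.33-fold lower) and Saa2 81.6 in Cont and 20.7 in Drp1LiKO (3.94-fold lower). The tissue was labelled liver, and the 10 hepatocyte markers, Alb among them at 865 in Cont and 604 in Drp1LiKO, were all within 2-fold with a median of -0.60, which was -0.04 after quantile normalization and 0.17 with the spike-in scaling. The direction of such small shifts among very bright genes depended on the scaling. The spike-in scaling moves every gene alike, so a list's place below the median of all genes (0.66) cannot change under it. With it the medians of the acute-phase (0.20), complement (0.18), transcription factor (0.31) and growth hormone (0.08) lists were also above 0. The same held for the respiratory chain. All 37 complex I subunits were below 0 with none past 2-fold, at a median of -0.53 with the 75th percentile, -0.23 after quantile normalization and 0.25 with the spike-ins. Of 16 measured cytochrome oxidase genes 3 were at least 2-fold lower, and these were the muscle-type subunits Cox8b, Cox7a1 and Cox6a2 described further down. The other fission and fusion genes stayed within 2-fold, with 0.26 for the Drp1 receptor Mff, -0.43 for Fis1, -0.51 for the inner membrane fusion GTPase Opa1 and -0.37 for Mfn2.

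Metabolic and clock genes showed single large differences within mixed lists. Among 25 PPARalpha and fasting targets 3 were higher and 2 lower. Acot2, a mitochondrial acyl-CoA thioesterase, had 0.236 in Cont and 1.3 in Drp1LiKO (5.53-fold), Ehhadh, the peroxisomal bifunctional enzyme, 26 in Cont and 86.3 in Drp1LiKO (3.31-fold) and Pdk4, which blocks pyruvate entry, 0.574 in Cont and 1.36 in Drp1LiKO (2.37-fold), while the related thioesterase Acot3 was 4.15-fold lower. Of 11 lipogenic genes 2 were lower, Thrsp (3.99-fold) and Srebf1 (3.14-fold). Arntl, the clock activator BMAL1, had 0.179 in Cont and 0.772 in Drp1LiKO (4.31-fold higher), and the clock output factors Dbp (3.48-fold), Hlf (2.41-fold) and Tef (2-fold) were lower.

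Some of the largest differences fell outside these lists. Meg3, a maternally expressed noncoding RNA, had the largest difference among genes measured on both arrays, 0.0922 in Cont and 7.36 in Drp1LiKO at chr12:110809678-110809737 of mm9, a 79.9-fold difference (log2 6.32, SE 0.30). Its 2 other probes, dim in Cont, gave log2 values of 3.61 and 4.02. Mirg, a noncoding RNA at chr12:110987569-110987628 on the same chromosome, was at least 10.5-fold higher, and Dlk1 at chr12:110698721-110698781 at least 2.84-fold, while Rtl1 and Dio3 of the same imprinted cluster were not well above background on either array. Dlk1, Rtl1 and Dio3 were chosen after their values were seen. S100g, a calcium-binding protein, was at least 20.2-fold and Nrg1, the ERBB ligand neuregulin 1, at least 16.3-fold higher, with relative signals of 1.3 and 1.04 in Drp1LiKO. Sprr1a, a cornified envelope protein, was 8.05-fold and Enox1 9.47-fold higher. The Cont intensity of Enox1 before scaling was 30.8, near the lowest intensity well above background on that array (29.6). The collagen receptor Mrc2 was at least 11.1-fold higher by the probe used (log2 5.54), but a probe well above background only in Cont gave -3.53, so its direction is not settled. On the lower side Serpina4-ps1, a serpin pseudogene of liver, had 45.7 in Cont and 1.26 in Drp1LiKO (36.1-fold) and the kinase Aatk 2.57 in Cont and 0.229 in Drp1LiKO (11.2-fold). Obp2a (8.77-fold), C730036E19Rik (9.8-fold) and Gm2479 (9.28-fold) were lower, with relative signals of 0.0788, 0.081 and 0.0676 in Drp1LiKO, where the lowest signal well above background was 0.0368, and Slc4a1, the erythrocyte anion exchanger, was 12.9-fold lower with the same signal of about 0.158 and 0.163 on the refed Cont and Drp1LiKO arrays. Some large values rested on 1 probe of several. The probe used for Tox4 gave 3.04 and a second probe 0.55, and for Dop1a the other 2 probes, at -0.24 and -0.23, were dim on at least 1 array. Of the 140 genes past 2-fold with at least 2 probes measured, 61 passed with every probe and 13 (9.29%) had probes with opposite signs.

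Skeletal muscle transcripts made up several of the largest lower values. Of 6 skeletal muscle markers 4 were well above background on the Cont array (Acta1, Ckm, Myh4 and Tnnt3), none on the Drp1LiKO array and none on either refed array, so that the list's summed relative signal was 2.47 on the Cont array, 0.0749 on the Drp1LiKO array and 0.162 and 0.0773 on the refed arrays. Mylpf and Actn3, also defining markers, were dim on all 4. Tnnc2, fast troponin C, had 3.25 on the Cont array and was not well above background on the others, at least 88.1-fold lower in Drp1LiKO. Tcap (36.5-fold), Acta1 (28.6-fold), Myh8 (27.3-fold) and Mb (24.2-fold) were lower by at least the fold given, and Tnni2 (18.2-fold) and Asb11 (18.6-fold) were lower with a signal on both arrays. The Drp1LiKO intensity of Asb11 before scaling was 30.3, near the lowest intensity well above background on that array (26.6). In a list of 40 muscle genes written after these values were seen, 27 were well above background on the Cont array against 13 on the Drp1LiKO, 14 on the refed Cont and 12 on the refed Drp1LiKO array. Leaving these genes out changed the count of lower genes measured on both arrays from 564 to 556. The muscle-type oxidase subunits belong to that list and followed different courses, Cox8b at 1.26, 0.0744, 0.377 and 0.0665 on the Cont, Drp1LiKO, refed Cont and refed Drp1LiKO arrays, Cox7a1 at 2.65, 0.862, 2.69 and 0.769, and Cox6a2 at 0.988, 0.387, 0.124 and 1.14. Cox8b and Cox7a1 were thus lower in Drp1LiKO in both pairs. The part of muscle tissue in these values was not tested.

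Genes known from adipose tissue were also lower. Of 6 measured adipocyte markers 4 were at least 2-fold lower with a median of -2.45. These lower markers include Cox8b, which is also counted above among the muscle-type oxidase subunits. The summed relative signal of the list was 145 in Cont and 42.4 in Drp1LiKO, most of it from Car3, which the liver also expresses. Cfd, the complement protease adipsin, had 4.23 in Cont and 0.126 in Drp1LiKO (33.6-fold) and Cidea, a lipid droplet protein, had 4.23 in Cont and 0.488 in Drp1LiKO (8.67-fold). In the refed pair Cfd went from 21.8 to 0.282 and Cidea from 19.6 to 0.284. Cfd also had the lowest value in a list of 10 steatosis genes linked to PPARgamma. Of that list 4 were at least 2-fold lower and 1 higher in the fasted pair, and 5 lower and 1 higher in the refed pair. The defining adipocyte genes Adipoq, Plin1 and Lep were not well above background on either fasted array, and Fabp4 had a log2 difference of 0.01.

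**Figure D4:**
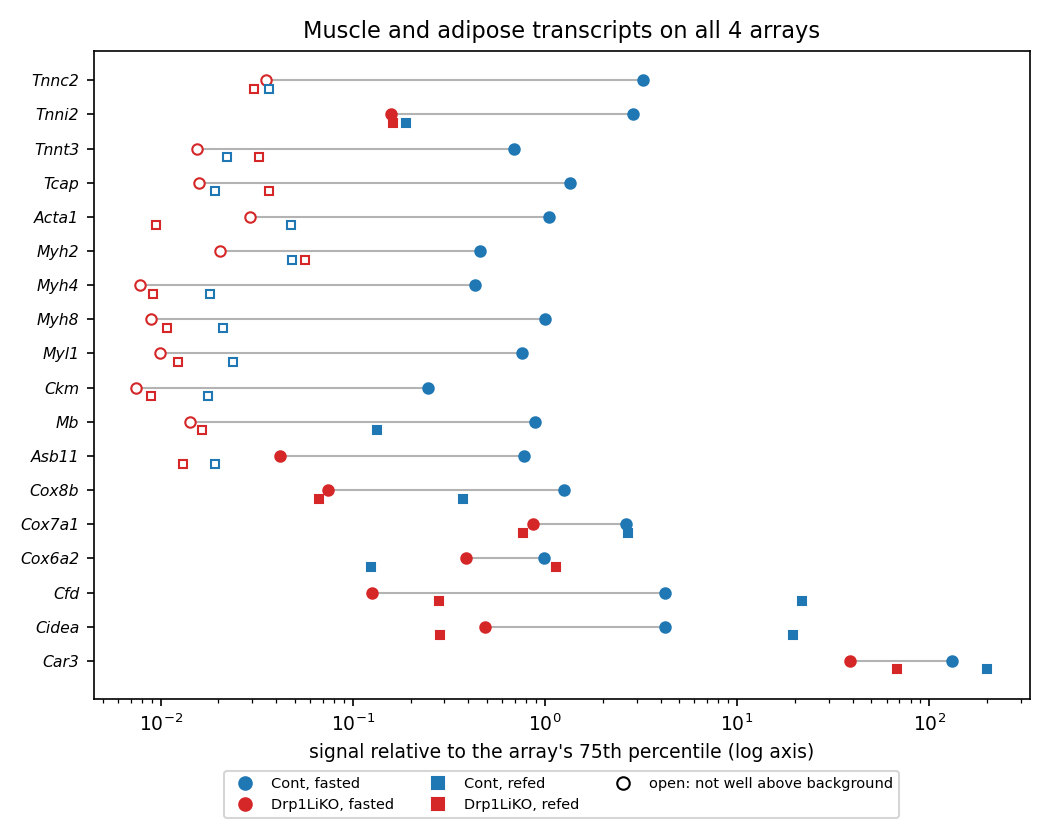
Relative signal (horizontal log axis) of 18 muscle and adipose transcripts on the fasted (circles, joined by a line) and refed (squares) arrays of Cont (blue) and Drp1LiKO (red) livers, with open symbols for signals not well above background. From Tnnc2 to Asb11 the fasted Cont signal lies to the right of the other 3, whereas Cfd, Cidea, Car3, Cox8b and Cox7a1 were higher in Cont than in Drp1LiKO in both feeding states.

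The refed pair, which shares no array with the fasted pair, gave a second reading of each gene. Of the 395 higher genes that were measured on all 4 arrays, 178 (45.1%) were also at least 2-fold higher in the refed pair, where 3.13% of 14374 genes were, and 352 were above 0. Of the 475 lower genes, 181 (38.1%) were also at least 2-fold lower, beside 3.99% of all genes, and 432 were below 0. Atf3 (4.42), Nupr1 (4.51), Trib3 (3.43), Asns (3.65), Gsta1 (3.82) and Ly6d (3.74) were far past 2-fold in the refed pair as well, with the log2 differences given. Others were past 2-fold in the fasted pair and not in the refed pair, such as Ddit4 (3.39 and 0.50), Fgf21 (2.58 and -0.67), Acot2 (2.47 and 0.17), Col1a1 (1.67 and -0.02), Prlr (-1.92 and -0.34) and Saa1 (-2.11 and 0.42), in the order fasted and refed. With 1 array per group the difference between the pairs was not tested.

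**Figure D5:**
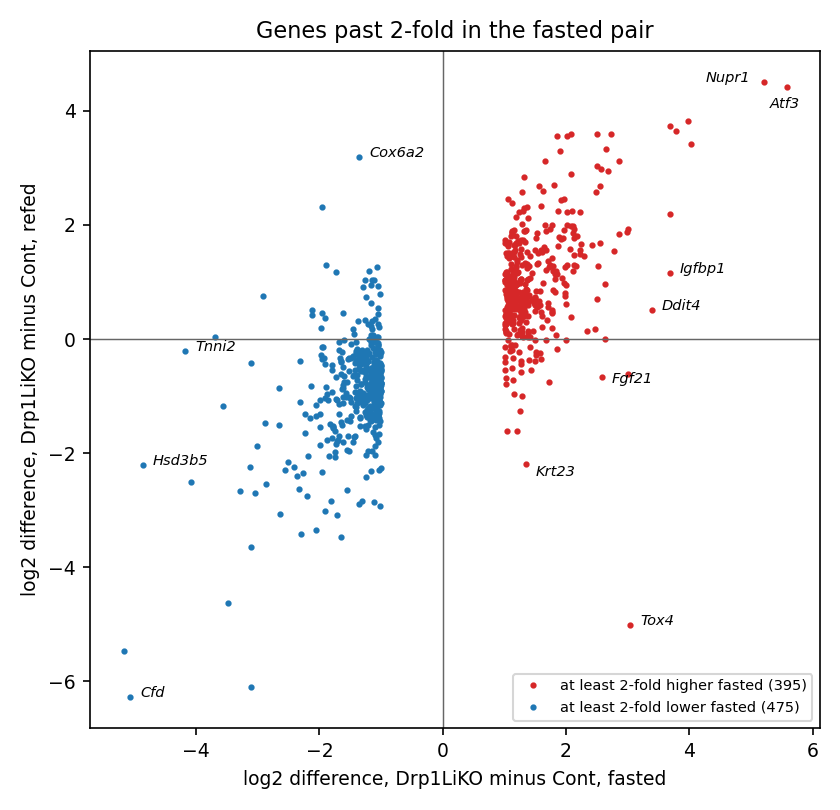
Log2 difference in the refed pair (vertical axis) against that in the fasted pair (horizontal axis) for the 395 higher (red) and 475 lower (blue) genes measured on all 4 arrays. Of the red points 352 lie above 0 and of the blue points 432 lie below 0, with Tox4, Krt23 and Cox6a2 among those far on the other side.

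The only test these arrays allow is a genotype term over all 4, which includes feeding state, treats a difference of the genotype effect between feeding states as error and has 1 residual degree of freedom. With limma and Benjamini-Hochberg adjustment, 1226 of the 14374 genes measured on all 4 arrays (8.53%) had an adjusted p under 0.05, 469 higher (3.26%) and 757 lower (5.27%). Calls in the lists described above were 12 of 23 tested and all higher for interferon-stimulated genes, 5 of 16 higher for the ATF4 and CHOP list, 3 of 10 higher for amino acid and one-carbon synthesis, 8 of 20 higher for the cytoskeleton and injury list and 7 of 10 lower for the Cyp2c genes, with none in the other direction. Immediate early genes had 5 of 12 higher. Fetal and ductular genes had 3 of 7 higher, NRF2 targets 6 of 24 and cell cycle genes 4 of 16, with none lower. Chemokine, cytokine and inflammasome genes had 4 of 17 higher and 1 lower. The growth hormone axis had 4 of 15 lower and adipocyte markers, Cox8b among them, 4 of 6, with none higher. Lists with few calls included the matrix list (1 of 14 higher), p53 targets (1 of 13 higher), acute-phase proteins (1 of 21 lower) and complex I (1 of 37 lower). The 22 ER chaperones, the 9 stellate cell and fibroblast markers and the 7 neutrophil markers had 0 calls. Their smallest adjusted p with limma were 0.0666, 0.05281 and 0.05005. In these fits the adjusted p from limma was 0.005678 for Asns, 0.007774 for Nupr1, 0.01112 for Atf3 and 0.01283 for Oas1a among higher genes, and 0.005558 for Serpina4-ps1 and 0.01087 for Cfd among lower ones. Igfbp1, higher in both pairs, had 0.06408. These calls hung on the settings. With the variances allowed to follow signal level, limma called 1684 genes, 591 higher and 1093 lower. After quantile normalization 70 genes were called, and with genes measured on 2 or more arrays, or without the feeding term, limma called 0, although 4733 and 2074 genes had an unadjusted p under 0.05.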

How the data were processed

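Liver RNA of 4 groups was hybridized to 4 one-color Agilent arrays, 1 per group, on 1 slide in 1 scan. The deposited scanner files give intensities, which per the file headers had the background subtracted by Feature Extraction 10.7.1.1 (the labels name 9.5.1.1). The labels and the study's methods name different array designs, and the files carry that of the labels. The authors also deposited a table of normalized intensities. On the log2 scale it equals quantile normalization of the same intensities, not of their logs, to within 0.01 for 99.6% of values. The median difference was 4.51e-05, and the table served as an alternative.

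Control spots and outlier spots were left out, spots of one probe were averaged, and each log2 signal was set against the 75th percentile of its array. 37 probes had outlier spots only. Of 28358 probes with a RefSeq accession, 26733 matched the gene table used for names, and coordinates are those of the files (mm9). A gene was read from the probe well above background on most of the 4 arrays, and from the brightest of these where several were alike. Where a gene was well above background on 1 array, the fold is a bound against the lowest signal well above background on the other, at a relative signal of 0.0643 in Cont and 0.0368 in Drp1LiKO. In 16 of the 2545 genes above background on 1 array by the probe used, another probe was above background on the other array. A call within the pair is a difference of at least 2-fold without a test, so an SE covers measurement error only.

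The genotype term was fitted over all 4 arrays with feeding state as a second term (limma 3.58.1, R 4.3.3, Benjamini-Hochberg), and the fit was tested on simulated data. Where nothing says that arrays come from separate mice, its p-values measure the spread between these arrays only. Other steps used scipy 1.17.1 and pandas 2.3.3 under Python 3.11.15.

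Genes named are the 15 largest differences and the 5 largest bounds in each direction, and members of the gene lists. The members and lists were chosen with earlier results of these data known. The list of 40 muscle genes, the spike-in scaling, the count without muscle genes and the count over genes with every probe past 2-fold were chosen after seeing the data. Alternatives were other scalings, the authors' table, normexp (offset 50) with quantile normalization, quantile normalization alone, other filters, 1.5-fold and the median over probes.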

Additional observations from a re-analysis of the deposited data

Results flagged for a closer look

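In 4 of the 163 named genes and list members past 2-fold in the fasted pair, the refed pair, which shares no array with it, gave a difference of at least 2-fold in the opposite direction. Such reversals were similarly rare over all genes measured on all 4 arrays. There 6 of the 395 higher genes were at least 2-fold lower in the refed pair, and 9 of the 475 lower genes at least 2-fold higher. Each side has 1 array per group, so the difference between the pairs was not tested. Cox6a2, a muscle-type cytochrome oxidase subunit, had a log2 difference of -1.35 in the fasted and 3.20 in the refed pair. Cxcl1, a neutrophil attractant, had -1.19 and 1.19. Krt23, a keratin of injured liver, had 1.35 and -2.19. Tox4, a chromatin protein, had 3.04 and -5.00, and its second probe had 0.55 and 0.57.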

How the results depend on the processing

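All 163 named genes past 2-fold kept their direction under 7 other scalings or probe rules, and between 130 and 159 of them stayed past 2-fold. Part of this was fixed in advance. Scaling to the array median, to the probes well above background on all 4 arrays or to the spike-ins moves every gene by the same amount. That amount was under 2-fold, so these scalings could not turn a gene chosen past 2-fold. The authors' table nearly equals quantile normalization. The count of 1030 genes past 2-fold (466 higher, 564 lower) was 496 after normexp and quantile normalization (253 higher, 243 lower), 3521 with spike-in scaling (3410 higher, 111 lower), 3361 at 1.5-fold (1259 higher, 2102 lower), 3523 without the background filter (1743 higher, 1780 lower) and 61 when at least 2 probes were measured and every probe had to pass (26 higher, 35 lower). Scaled to the 75th percentile of probes well above background on all 4 arrays, 681 genes were higher and 336 lower. With bounds included, 773 higher and 900 lower became 368 and 387 after normexp, and 4194 and 313 with spike-ins, and 1440 were higher when dim signals were taken as measured. Of 55 lists, 26 had a median above that of all genes, and 31 after quantile normalization, after normexp and in the authors' table. In all 46 kept their side under every alternative and 9, which lay within 0.253 of that median, did not: hepatokines, heat shock, lipid droplet, cytosolic ribosomal, proteasome, glutathione S-transferase, triacylglycerol synthesis, urea cycle and mitophagy genes. A scaling that moves every gene alike cannot change the side of a list. Only quantile normalization, the similar authors' table, normexp and the median over probes could do so. The hepatokine median relative to all genes turned to 0.025 after quantile normalization, 0.065 after normexp and 0.026 in the authors' table. The genotype term called 1226 genes with limma, 1684 with variances that follow signal level, 70 after quantile normalization, and 0 with genes measured on 2 or more arrays and 0 without feeding state. The cause of these moves was not tested. No paired analysis was possible because the labels give no replicate numbers and each group has 1 array, and leaving out a replicate was not possible for the same reason. Signals near background limit the dimmest genes, where a fold is a bound.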
